A study of Rattus norvegicus with 138 samples.

Results

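The intracellular calcium release channels and calcium pumps were 10 of the 32883 genes in each table, taken by gene symbol: the ryanodine receptors Ryr1, Ryr2 and Ryr3, the inositol 1,4,5-trisphosphate (IP3) receptors Itpr1 and Itpr2, the endoplasmic reticulum pump Atp2a2 and the plasma membrane pumps Atp2b1, Atp2b2, Atp2b3 and Atp2b4. All 10 passed the filter on low values in each of 3 brainstem regions, the nucleus of the solitary tract (NTS), the caudal ventrolateral medulla (CVLM) and the rostral ventrolateral medulla (RVLM). RNA was sequenced from 1 mm bilateral tissue punches of these regions in female spontaneously hypertensive rats (SHR/NHsd) and female Wistar-Kyoto rats (WKY/NHsd), with no treatment in either strain. The ages were 8, 10, 12, 16 and 24 wk, with 5, 4, 3, 3 and 3 WKY rats and 5, 5, 6, 6 and 6 SHRs, and each of the 46 rats gave 1 library per region. SHRs develop high blood pressure with age and WKY rats serve as the normotensive comparison, but these are inbred strains that differ at many loci, and a punch holds neurons, glia and vessels together.

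Ryanodine receptors and IP3 receptors are the channels that let calcium out of the endoplasmic reticulum, the first opened by calcium itself and the second by IP3 made downstream of Gq-coupled receptors. Sarco/endoplasmic reticulum ATPases such as the product of Atp2a2 (SERCA2) refill that store, and plasma membrane calcium ATPases (PMCA), encoded by Atp2b1 to Atp2b4, push calcium out of the cell. In neurons these proteins shape calcium signals that follow firing and transmitter release. The NTS receives baroreceptor input, the CVLM holds inhibitory neurons that act on the RVLM, and the RVLM drives sympathetic outflow.

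Promoter sequences are shown for 3 members whose levels differed between the regions in opposite directions: Ryr2 and Atp2b2, lower in the NTS than in both ventrolateral regions, and Atp2b4, higher in the NTS. Each runs from 250 bases before to 50 bases after the annotated start (RefSeq, GRCr8, 5′ to 3′ on the strand of the gene), and capitals mark GC boxes, GGGCGG on either strand, overlaps kept. The Ryr2 window is chr17:63081277-63081576 on the plus strand, the Atp2b2 window chr4:148763604-148763903 on the minus strand and the Atp2b4 window chr13:47758827-47759126 on the minus strand.
Ryr2: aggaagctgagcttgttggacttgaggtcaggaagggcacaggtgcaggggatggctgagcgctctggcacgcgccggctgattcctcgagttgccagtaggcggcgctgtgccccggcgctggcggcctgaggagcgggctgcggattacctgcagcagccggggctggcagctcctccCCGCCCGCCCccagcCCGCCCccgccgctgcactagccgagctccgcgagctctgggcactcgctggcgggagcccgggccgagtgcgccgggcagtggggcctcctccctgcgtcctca
Atp2b2: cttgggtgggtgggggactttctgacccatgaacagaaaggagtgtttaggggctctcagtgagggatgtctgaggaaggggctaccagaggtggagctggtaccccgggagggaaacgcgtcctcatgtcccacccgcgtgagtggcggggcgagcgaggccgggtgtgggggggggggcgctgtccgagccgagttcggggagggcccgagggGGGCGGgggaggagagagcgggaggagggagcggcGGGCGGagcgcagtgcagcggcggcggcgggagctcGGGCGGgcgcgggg
Atp2b4: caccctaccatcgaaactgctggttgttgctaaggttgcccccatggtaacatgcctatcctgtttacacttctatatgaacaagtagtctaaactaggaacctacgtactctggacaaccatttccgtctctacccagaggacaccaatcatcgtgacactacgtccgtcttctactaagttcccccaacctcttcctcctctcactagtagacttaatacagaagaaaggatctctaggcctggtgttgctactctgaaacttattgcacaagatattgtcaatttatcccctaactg
The Ryr2 and Atp2b2 windows held 3 GC boxes and 28 CpG dinucleotides each, and the Atp2b4 window held 0 GC boxes and 6 CpG, against a median of 7 CpG over all 33469 rat promoters in the table. A GC box was present in 33.1% of those promoters. The letters TATAAA, searched on both strands, were in 14.2% of them and in none of the member windows. Promoter entries matched 9 of the 10 members, and the widest range was from 52 CpG in the Atp2a2 window to 3 in the second of the entries for Ryr3. Atp2b4 is the only member shown that was higher in the NTS. Whether promoter content goes with the regional order of the members was not tested.

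Libraries held 5904581 to 17889417 expected counts. Levels are given in CPM, counts divided by a library size that was scaled by the trimmed mean of M values (TMM) over all libraries, so that regions share a scale. The levels are not divided by transcript length, so they are compared between samples and never between genes. The names of the libraries end in 1 or 2, a number whose meaning is not given in the sources used here: it was 2 in every 10-wk library, in 3 of 5 WKY libraries per region at 8 wk and in 1 SHR library per region at 12 and at 24 wk. Libraries ending in 2 were deeper, with a median total of 14677496 against 9331624. Titles and age labels disagreed for 2 CVLM libraries, WKY replicate 5 and SHR replicate 5, which were placed at 8 wk by title. Markers were read against the regional names: Pnmt, the enzyme that makes adrenaline and marks the C1 group, had a median of 41.9 CPM in the CVLM, above the 19.7 of the RVLM and the 3.60 of the NTS. The 6-gene catecholamine neuron list, which holds Pnmt, had another order. Its sum had medians of 275 CPM in the CVLM, 217 in the NTS and 87.0 in the RVLM. Ttr, a choroid plexus gene, reached 4299 CPM in 1 NTS library against a median of 0.359. The 6-gene choroid plexus list reached 1839, 105, 4440 and 11.2 CPM in WKY NTS libraries at 8, 10, 12 and 16 wk. Its highest sums in SHR NTS libraries at these ages were 5.51, 5.95, 7.31 and 6.65 CPM. The cerebellar genes Pcp2 and Gabra6 had a median of 0 in each region. Their 7-gene list summed to medians of 61.1, 39.2 and 26.4 CPM in the NTS, CVLM and RVLM.

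The regions were compared first, within rats. Of the 10 members, 9 differed between the NTS and the CVLM (4 higher and 5 lower in the NTS), 9 between the NTS and the RVLM (1 higher, 8 lower) and 6 between the CVLM and the RVLM (1 higher and 5 lower in the CVLM), at an adjusted p below 0.05 in edgeR's quasi-likelihood test with rat as a block and Benjamini-Hochberg adjustment over 14043 genes. The same test called 65.9%, 72.7% and 54% of all genes in these 3 comparisons, so these shares of members lie in a setting where most genes differ. Itpr1, the main neuronal IP3 receptor, was not called in any pair. In bulk tissue, fewer cells of a type and less RNA per cell cannot be told apart.

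Among the release channels, Ryr2, a ryanodine receptor of heart and brain, had a lowest, median and highest level of 9.09, 19.2 and 29.4 CPM in the NTS, 13.7, 23.1 and 44.3 in the CVLM and 11, 23.6 and 33.1 in the RVLM, so single libraries overlapped between regions. Its NTS level was 0.35 log2 units below the CVLM (SE 0.0645, edgeR adjusted p = 1.81e-06) and 0.30 below the RVLM (SE 0.0644, adjusted p = 2.78e-05), while the CVLM and the RVLM differed by 0.05 with a 95% interval of -0.08 to 0.18. Ryr3 had the widest difference of the members between the ventrolateral regions. Its lowest, median and highest levels were 1.97, 4.32 and 6.52 CPM in the NTS, 0.906, 2.75 and 5.09 in the CVLM and 2.70, 5.39 and 8.22 in the RVLM. The CVLM was 1.02 log2 units below the RVLM (SE 0.0939, edgeR adjusted p = 3.40e-16), and the NTS lay between them. Ryr1, best known from skeletal muscle, was low throughout, with medians of 2.40, 1.76 and 2.71 CPM in the NTS, CVLM and RVLM and as few as 4 counts in a library. It showed the same order as Ryr3, the CVLM 0.68 log2 units below the RVLM (SE 0.10, edgeR adjusted p = 1.03e-08). Its NTS to RVLM difference of -0.23 (edgeR adjusted p = 0.0309) missed the threshold without replicate 1, 3, 4 or 5, at adjusted p = 0.0614 to 0.116. Leaving out a replicate number in the fit over regions removed every rat of that number, over both strains and all ages, and not a single rat. The muscle gene Ckm had medians of 0 CPM in the NTS and CVLM and 0.107 in the RVLM. The 6-gene skeletal muscle list that holds Ckm was not at 0, with summed medians of 15.4, 13.2 and 13.8 CPM in the NTS, CVLM and RVLM. Itpr2, an IP3 receptor of astrocytes and other cells, had medians of 6.59, 7.26 and 7.91 CPM, and its CVLM to RVLM difference of -0.13 (edgeR adjusted p = 0.0464) missed the threshold when any of 5 of the 6 replicate numbers was left out, at adjusted p = 0.0774 to 0.340. For Itpr1 the largest of the 3 differences was 0.05 log2 units, with a 95% interval of -0.10 to 0.19, around medians of 10.4, 10.1 and 9.73 CPM.

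**Figure D1:**
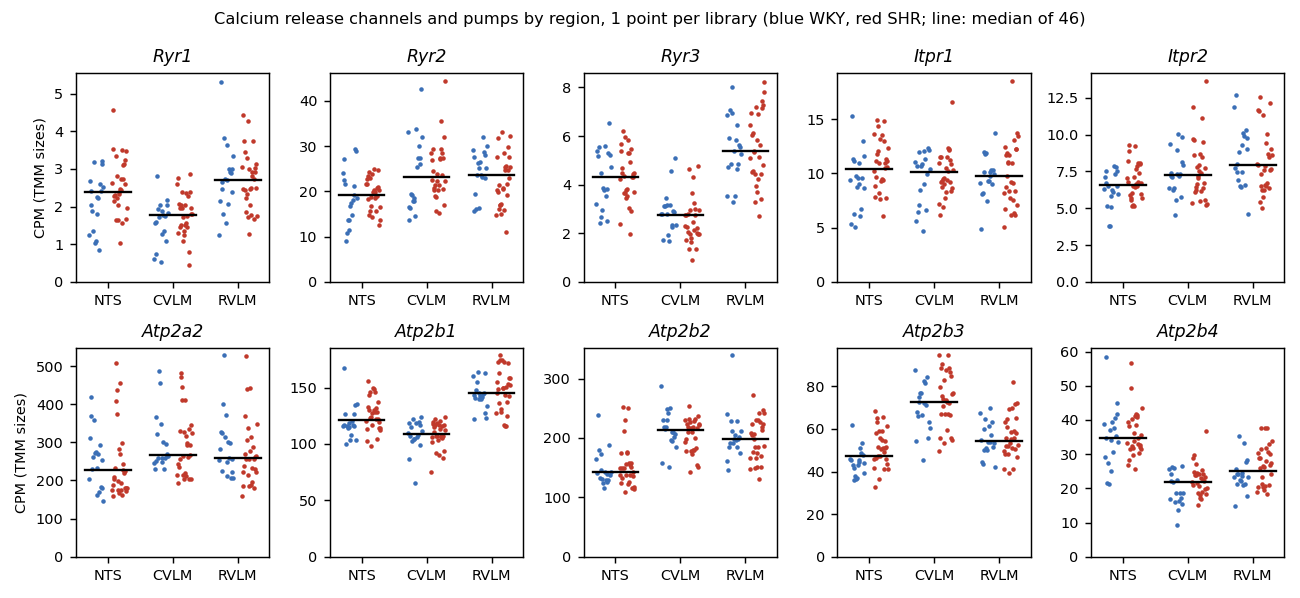
CPM of each member in every library, by region (x axis) and strain (blue WKY, red SHR), with the median of the 46 libraries of a region as a line; axes start at 0. Atp2b4 sits highest in the NTS with a median of 34.7 CPM, Atp2b3 in the CVLM with 72.6, and Ryr3 lowest in the CVLM with 2.75.

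Among the pumps, Atp2b4 was the member that was highest in the NTS. Its lowest, median and highest levels were 21.3, 34.7 and 58.5 CPM there, 9.23, 21.9 and 36.9 in the CVLM and 14.8, 25 and 37.7 in the RVLM. The NTS was 0.78 log2 units above the CVLM (SE 0.0577, edgeR adjusted p = 6.87e-21) and 0.48 above the RVLM (SE 0.0571, adjusted p = 6.94e-12). Atp2b3, a PMCA largely of neurons, was lowest in the NTS, at 32.8, 47.1 and 68.3 CPM, and highest in the CVLM, at 45.4, 72.6 and 94.8, with the RVLM at 39.4, 54.6 and 82.0. The NTS lay 0.58 log2 units below the CVLM (SE 0.0404, edgeR adjusted p = 2.69e-22) and the CVLM 0.36 above the RVLM (SE 0.0403, adjusted p = 1.28e-12). Atp2b2, a fast PMCA of neurons and hair cells, had medians of 142, 213 and 199 CPM in the NTS, CVLM and RVLM. Its NTS level was 0.48 log2 units below the CVLM and 0.42 below the RVLM (edgeR adjusted p = 3.47e-17 and 4.57e-15), and the 2 ventrolateral regions differed by 0.05 with a 95% interval of -0.03 to 0.14. Atp2b1, the PMCA of most cells, had medians of 121, 109 and 145 CPM and fell by 0.43 log2 units from the RVLM to the CVLM (edgeR adjusted p = 1.19e-18). Atp2a2 had medians of 227, 265 and 259 CPM, the NTS 0.29 and 0.20 log2 units below the CVLM and the RVLM (edgeR adjusted p = 7.10e-06 and 0.00114).

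**Figure D2:**
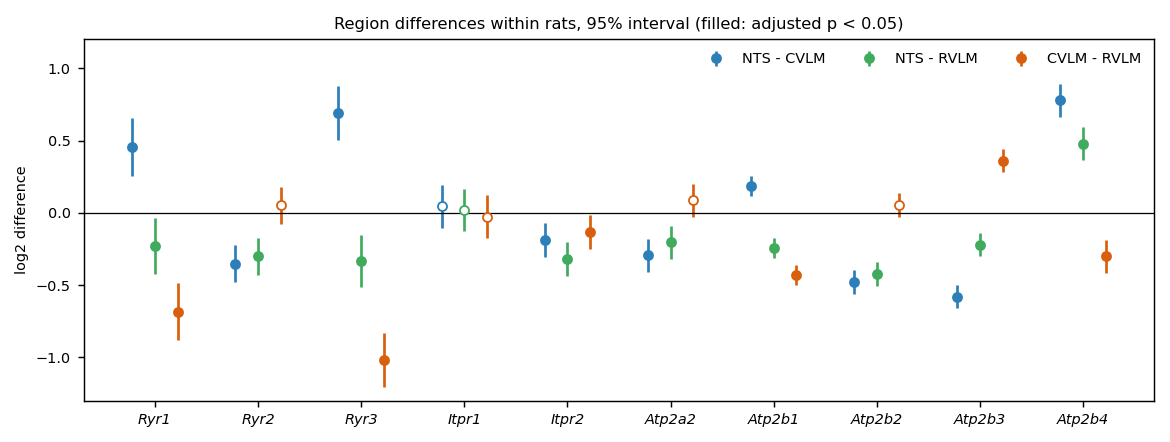
Log2 difference between regions for each member, with the 95% interval of the edgeR fit that holds rat as a block; filled points passed an adjusted p of 0.05. The CVLM to RVLM difference of Ryr3, -1.02, is the widest, and Itpr1 has no filled point.

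Cell type markers moved with the regions too. Of the 8 neuron markers, 0 were higher and 5 lower in the NTS than in the CVLM (median log2 difference -0.39), and 1 was higher and 7 lower in the NTS than in the RVLM (-0.47). Summed over the list, NTS libraries held 5480 to 9717 CPM of neuron markers, CVLM libraries 7933 to 15374 and RVLM libraries 12900 to 33095. All 6 oligodendrocyte markers were lower in the NTS than in either region, and their sum was 18704 to 48009 CPM in NTS libraries, 39154 to 74900 in CVLM libraries and 33163 to 67912 in RVLM libraries. Motor neuron markers summed to a median of 1789 CPM in the RVLM, 437 in the NTS and 150 in the CVLM, with Mnx1 at a median of 0 in each. Other lists were higher in the NTS. All 6 microglia markers and all 5 tested ependyma markers were called as higher there than in either region, with list medians of 0.29 and 3.92 log2 units against the CVLM and 0.24 and 4.53 against the RVLM. Microglia markers summed to 192 to 316 CPM in NTS libraries, 139 to 229 in CVLM libraries and 136 to 261 in RVLM libraries. Of 6 astrocyte markers, 4 were higher and 1 lower in the NTS than in the CVLM, and 3 higher and 2 lower than in the RVLM. Whether these cell types account for the regional order of the members was not tested.

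The strains were then compared at each age. In the NTS at 10 wk, the SHR level of all 10 members was above the WKY level in the fitted difference, by 0.25 to 0.66 log2 units (median 0.54, against 0.02 over all genes), and 1 of the 10, Atp2b3, passed the threshold. Of the 13793 genes there, the test called 4.44%, and 52.7% had a positive difference. At an unadjusted p below 0.05 there were 6 members, Ryr2, Ryr3, Itpr1, Atp2b2, Atp2b3 and Atp2b4, and 2448 of the 13793 genes. Every SHR library lay above every WKY library for 3 of the 10, Atp2b1, Ryr2 and Atp2b3, and for 2.62% of all genes tested in the NTS.

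Atp2b3 in the NTS at 10 wk measured 35.9, 36.5, 36.9 and 38.0 CPM in the 4 WKY rats and 46.5, 47.1, 51.5, 63.5 and 65.2 CPM in the 5 SHRs. The groups did not overlap, and the WKY values lay close together. The SHR level was 0.62 log2 units higher (SE 0.158, 95% interval 0.30 to 0.94, edgeR quasi-likelihood adjusted p = 0.0130), and without SHR replicate 2 or SHR replicate 3 the adjusted p was 0.0577 or 0.0623. Averaged over the 5 ages the difference was 0.21 (SE 0.0721, edgeR adjusted p = 0.0472), the 1 call among the members, with 11.2% of all genes called. That call was lost in 31 of the 46 fits that left out 1 rat, at adjusted p from 0.0512 to 0.0854, with limma voom (adjusted p = 0.0761) and with no filter on low counts (0.0624). With the replicate number within age as a block, the adjusted p was 0.0852 at 10 wk and 0.161 averaged over ages, so neither call was made. At the other ages the Atp2b3 means were 47.5 ± 8.06 in WKY rats and 49.4 ± 13.9 CPM in SHRs at 8 wk (SD, n = 5 and 5), 44.2 ± 1.09 and 51.4 ± 8.77 at 12 wk (n = 3 and 6), 51.0 ± 2.31 and 52.1 ± 8.05 at 16 wk (n = 3 and 6) and 43.6 ± 4.29 and 49.6 ± 7.54 at 24 wk (n = 3 and 6). The 10-wk WKY mean of 36.8 was the lowest of the 10 NTS group means.

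Ryr2 in the NTS at 10 wk measured 10.8, 11.5, 13.6 and 13.7 CPM in WKY rats and 14.8, 15.6, 16.8, 22.9 and 24.2 CPM in SHRs, again without overlap. Its log2 difference of 0.66 (SE 0.209, 95% interval 0.23 to 1.08) was the widest of the members and missed the threshold (edgeR adjusted p = 0.0625), while DESeq2 gave an adjusted p of 0.0469. Ryr2 passed it in edgeR without SHR replicate 1 or 4 at 10 wk or WKY replicate 5 at 8 wk, at adjusted p = 0.0297, 0.0416 and 0.0196. At 24 wk the order was the opposite, 18.5, 28.9 and 29.4 CPM in WKY rats against a lowest, median and highest of 12.6, 18.4 and 24.8 in 6 SHRs, with a difference of -0.50 (SE 0.216, edgeR adjusted p = 0.280). The WKY means were 20.9 ± 6.93 CPM at 8 wk (SD, n = 5), 12.4 ± 1.49 at 10 wk (n = 4), 16.3 ± 1.43 at 12 wk (n = 3), 19.5 ± 1.66 at 16 wk (n = 3) and 25.6 ± 6.19 at 24 wk (n = 3), and the SHR means lay between 18.1 and 21.5. The 10-wk WKY libraries all end in 2 and the 24-wk WKY libraries in 1, so age and that number cannot be told apart between these ages.

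**Figure D3:**
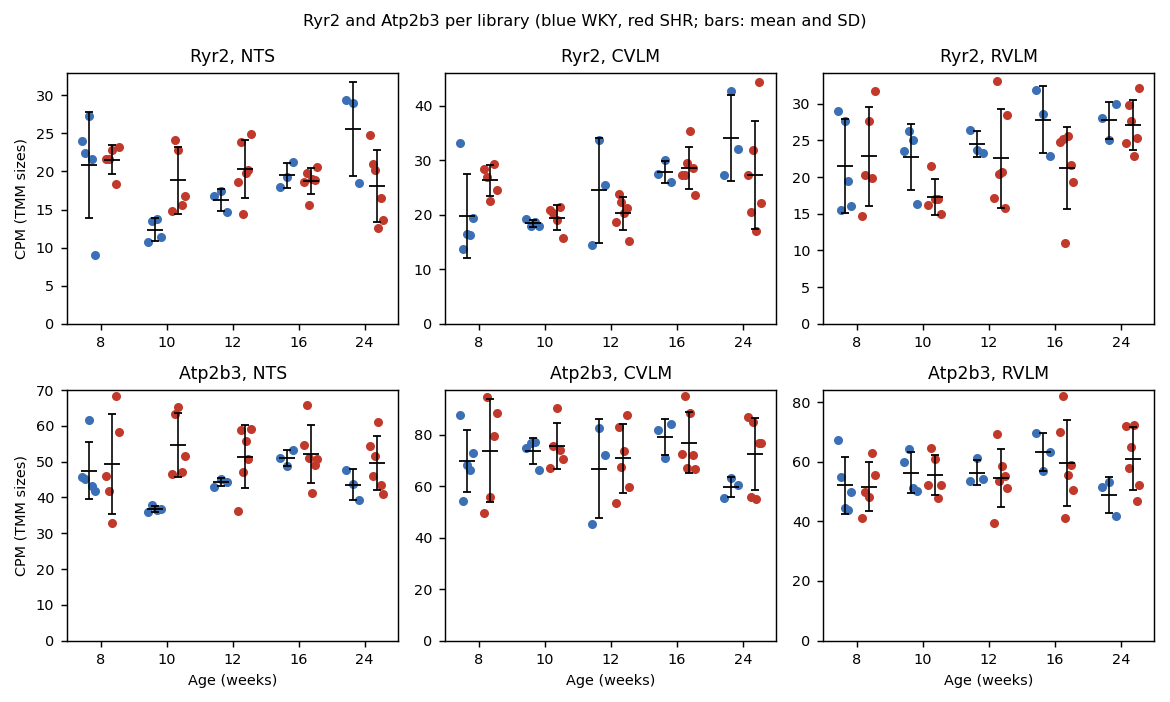
Ryr2 and Atp2b3 CPM in every library by age in weeks, region and strain (blue WKY, red SHR), with the group mean and SD as black bars and axes from 0. In the NTS at 10 wk the WKY points reach 13.7 CPM for Ryr2 and 38.0 CPM for Atp2b3, below all SHR points, and the strains overlap at 10 wk in the CVLM and RVLM.

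The other members overlapped more. Itpr1 in the NTS at 10 wk measured 5.10, 8.75, 9.75 and 11.1 CPM in WKY rats and 9.67, 11.8, 12.1, 14.3 and 14.9 CPM in SHRs (log2 difference 0.59, SE 0.243, edgeR adjusted p = 0.174). Atp2b2 measured 124, 132, 147 and 172 CPM against 133, 149, 211, 230 and 252 (0.49, SE 0.182, edgeR adjusted p = 0.119, and 0.0342 without SHR replicate 1). Atp2b4 measured 21.3, 27.4, 34.3 and 37.2 CPM against 31.5, 32.4, 40.3, 49.2 and 56.6 (0.53, SE 0.199, edgeR adjusted p = 0.120). Atp2b1 differed least, by 0.25 (SE 0.122, edgeR adjusted p = 0.282), on values of 114 to 119 CPM in WKY rats and 123 to 146 in SHRs. For Ryr1, counts of 14 to 55 per library stood behind the comparison, and WKY replicate 2, at 3.19 CPM, lay apart from the other 3 WKY values of 1.03 to 1.35. Without it the Ryr1 difference went from 0.60 to 1.13 log2 units (edgeR adjusted p from 0.316 to 0.0377).

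**Figure D4:**
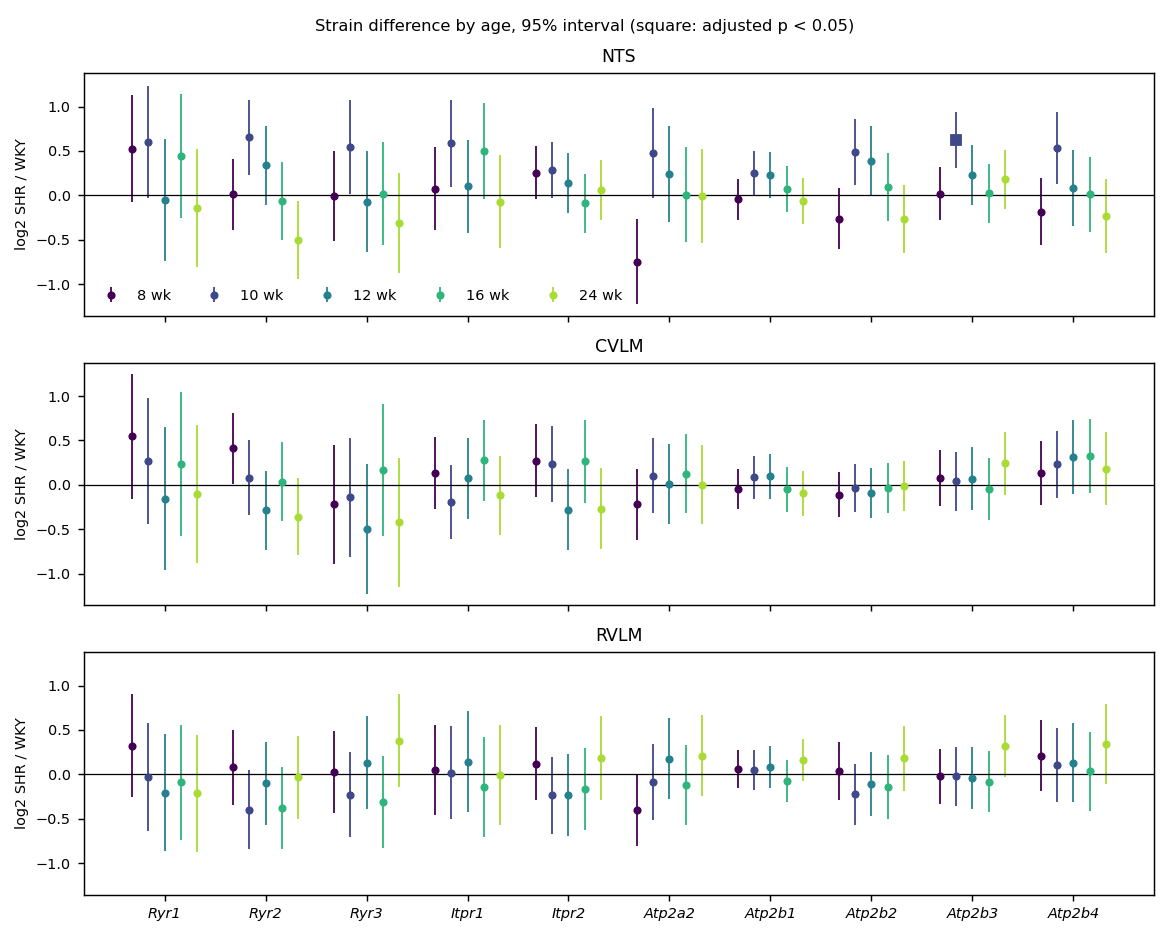
Log2 difference between SHRs and WKY rats for each member at the 5 ages (color) in each region, with the 95% interval of the edgeR fit; the square passed an adjusted p of 0.05. In the NTS the 10-wk points all lie above 0, from 0.25 to 0.66, and the square is Atp2b3 at 10 wk.

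Among the 13 marker lists at this age and region, 3 held a called gene. Of the 8 neuron markers 0 were called and 4 had a positive difference, and the summed level ranged from 6675 to 9717 CPM in WKY rats and 6888 to 9026 in SHRs. The blood cell list ranged from 328 to 428 CPM in WKY rats and 155 to 328 in SHRs, with 0 of its 5 tested genes called and Slc4a1 at a median of 0 in the region. The list of vascular smooth muscle and pericytes, with 1 of 4 tested genes called as higher in SHRs, ranged from 21.8 to 39.6 CPM in WKY rats and 35.5 to 48.8 in SHRs. For skeletal muscle the 1 tested gene was called as higher (0.80 log2 units), and the summed list ranged from 4.92 to 8.57 CPM in WKY rats and 10.0 to 16.5 in SHRs, without overlap. This order was not particular to 10 wk or the NTS. At 8, 12 and 16 wk the NTS means of this sum were 10.5, 12.1 and 13.0 CPM in WKY rats and 19.3, 18.7 and 21.2 in SHRs. At 10 wk they were 7.43 and 12.1 CPM in the CVLM and 7.41 and 12.1 in the RVLM. Of 6 oligodendrocyte markers 1 was called as lower. Motor neuron markers had 0 calls and 5 of 5 positive differences, and microglia markers had 0 calls, with sums of 203 to 226 CPM in WKY rats and 192 to 197 in SHRs. Choroid plexus markers summed to 4.69 to 105 CPM in WKY rats and 3.78 to 5.95 in SHRs. The part of these cell types in the Atp2b3 difference was not tested.

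Whether the strain difference changed with age was tested directly. No member passed the test over all ages (4 degrees of freedom) in the NTS, where 0.0145% of genes were called and 3 members, Ryr2, Atp2a2 and Atp2b2, had an unadjusted p below 0.05 as did 1677 of the 13793 genes, nor in the CVLM (0.0224% of genes) or the RVLM (0.00746%), with 0 members at that level in both. Over all genes, 1612 were at that level in the CVLM and 762 in the RVLM. DESeq2 and limma also called 0. A further contrast was the 10-wk difference minus the mean of the other ages. It was chosen with results known, since the study names Ryr2 and Atp2b3 in the NTS at 10 wk. In the NTS the contrast was positive for all 10 members, by 0.20 to 0.71 log2 units, and for 50.8% of genes. At an unadjusted p below 0.05 there were 6 members and 1339 of the 13793 genes. By edgeR, DESeq2 or limma 0 members were called (0.0508% of genes called by edgeR). For Ryr2 the contrast was 0.71 (SE 0.234, edgeR adjusted p = 0.286). In the CVLM it was positive for 7 of 10 members and 52.7% of genes, and in the RVLM for 2 of 10 and 45.9%. In both regions 0 members had an unadjusted p below 0.05 (0% and 0.0149% of genes called). At that level were 382 CVLM genes and 210 RVLM genes.

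At the other ages in the NTS, 0 members were called by edgeR, while the shares of all genes called were 5.79%, 3.1%, 1.73% and 2.46% from the youngest of these ages to the oldest. The member nearest to the threshold was Atp2a2 at 8 wk. It measured 203, 231, 312, 368 and 419 CPM in WKY rats and 160, 175, 189, 203 and 209 CPM in SHRs, a difference of -0.75 (SE 0.236, edgeR adjusted p = 0.0505). DESeq2 gave -0.72 and an adjusted p of 0.0310. The 3 WKY libraries ending in 2 were 231, 368 and 419 CPM and those ending in 1 were 203 and 312, while all 5 SHR libraries end in 1. With that number as a covariate the difference was -0.42 (edgeR adjusted p = 0.547), and among libraries ending in 1 it was -0.46 (adjusted p = 0.499).

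**Figure D5:**
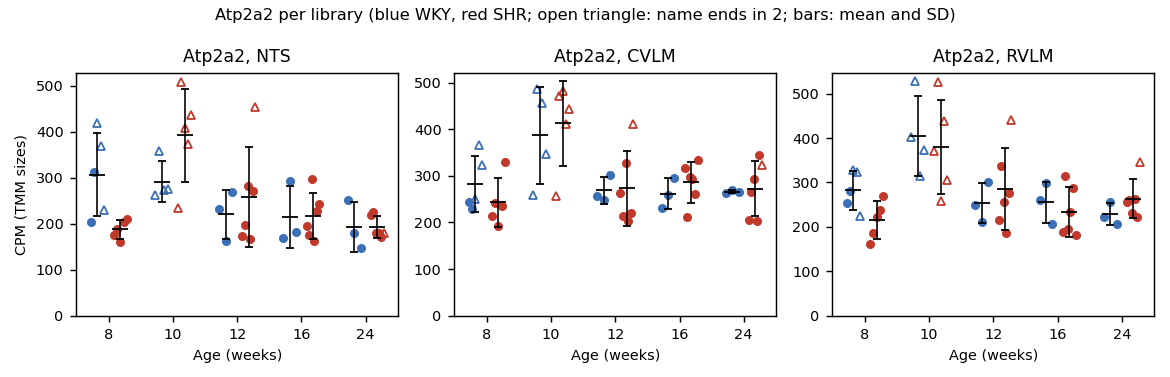
Atp2a2 CPM in every library by age in weeks, region and strain (blue WKY, red SHR; open triangles mark library names ending in 2), with the group mean and SD as black bars and axes from 0. Triangles average 342 CPM in the NTS, against 210 for the filled circles.

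In all 3 regions Atp2a2 was higher in the libraries ending in 2. Over 32 libraries ending in 1 and 14 ending in 2, the means were 210 ± 45.9 and 342 ± 99.2 CPM in the NTS, 261 ± 43.2 and 378 ± 86.2 in the CVLM and 241 ± 42.4 and 370 ± 90 in the RVLM (SD). Within groups that hold both numbers, the coefficient of that number was 0.52, 0.49 and 0.44 log2 units (edgeR adjusted p = 0.0543, 0.0299 and 0.0625). Itpr1 had a coefficient of 0.63 in the RVLM (edgeR adjusted p = 0.0294). These were the calls, 1 of 10 members in the CVLM and 1 in the RVLM, and 25.6%, 21.6% and 16.4% of all genes were called in the NTS, CVLM and RVLM. The 10-wk strain comparison lies within libraries ending in 2.

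In the CVLM and the RVLM no member was called at any age or averaged over ages, by edgeR, DESeq2 or limma. The test called 7.64%, 3.18%, 2.62%, 2.27% and 7.13% of genes from the youngest to the oldest age in the CVLM and 9.78%, 2.3%, 1.7%, 1.65% and 2.24% in the RVLM, and 12.3% and 10.8% for the average over ages. At an unadjusted p below 0.05 there were, over the 50 tests of members and ages in each region, 1 in the CVLM, Ryr2 at 8 wk, and 0 in the RVLM. From the youngest to the oldest age, 3005, 1332, 1426, 991 and 3029 of the 13408 CVLM genes were at that level. In the RVLM 3704, 1045, 864, 742 and 2005 of the 13411 genes were. Ryr2 at 8 wk in the CVLM differed by 0.41 log2 units (SE 0.199, edgeR adjusted p = 0.209), and by 0.67 without WKY replicate 1 (adjusted p = 0.0179). Atp2b4 averaged over ages in the CVLM was 0.24 higher in SHRs (SE 0.0879, edgeR adjusted p = 0.0713) and passed the threshold when WKY replicate 2 at 10 wk, replicate 2 at 12 wk or replicate 1 at 24 wk was left out. In the RVLM at 10 wk 3 of the 10 member differences were positive, as were those of 47.4% of all genes. The members ranged from -0.40 to 0.10.

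The strain difference was also compared between regions, within rats. At 10 wk the NTS value exceeded that of the RVLM for all 10 members, by 0.15 to 0.98 log2 units, and for 46.9% of all genes. Of the members 0 were called (0.42% of genes). Ryr2 was nearest, at 0.98 (SE 0.280, edgeR adjusted p = 0.0759), and limma with the rat as a correlated block called it. Atp2b2 was at 0.63 and Atp2b3 at 0.58 (edgeR adjusted p = 0.0788 and 0.0895). Without replicate 4, Ryr2 and Atp2b2 were called, at adjusted p = 0.0450 and 0.0405. Against the CVLM, all 10 members were positive as well, as were 47.6% of all genes. Of the members 0 were called (0.0498% of genes) and Itpr1 had the widest difference, 0.74 (SE 0.314, edgeR adjusted p = 0.378). Between the CVLM and the RVLM 0 were called (0.0142%). For the average over ages, 0 members were called in the 3 pairs of regions, with 0.449%, 1.82% and 0.32% of genes called for NTS against CVLM, NTS against RVLM and CVLM against RVLM. Members at an unadjusted p below 0.05 numbered 3 in each of the 10-wk comparisons that involve the NTS, where 1451 (against the CVLM) and 1978 (against the RVLM) of the 14043 genes were at that level.

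Within strains, 0 members were called between 24 and 8 wk in SHRs or between 24 and 12 wk in WKY rats, groups chosen because most of their libraries end in 1. The shares of all genes called were 0.232% and 0% in the NTS, 0.649% and 0.0447% in the CVLM and 0.358% and 0% in the RVLM. Over members the differences ranged from -0.27 to 0.03 log2 units in NTS SHRs and from -0.22 to 0.63 in NTS WKY rats, the latter end being Ryr2 (SE 0.254, edgeR adjusted p = 0.607), the 1 member at an unadjusted p below 0.05 in the 6 comparisons. Over all genes, 1038 to 1540 were at that level in each of these comparisons. DESeq2 and limma called 0 members as well.

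Other genes of calcium handling were read from 5 lists, beside strain calls for 11.2%, 12.3% and 10.8% of all NTS, CVLM and RVLM genes. In the NTS, averaged over ages, 2 of 22 tested genes of store release and refilling were higher and 5 lower in SHRs, 0 of 10 for plasma membrane and Golgi extrusion, 1 higher and 1 lower of 9 for mitochondrial uptake, 1 of 9 higher for IP3 production and 2 of 17 lower for calcium binding and calmodulin signalling. The lists held, in the same order, 2 higher and 6 lower of 23 in the CVLM, then 1 higher of 10, 1 higher of 8, 1 higher of 9 and 1 lower of 16, and in the RVLM 2 higher and 7 lower of 24, 0 of 9, 1 higher of 9, 0 of 9 and 2 higher and 1 lower of 16. Asph, which encodes aspartate beta-hydroxylase and the store proteins junctin and junctate, was called in all regions. Its lowest, median and highest levels in the NTS were 56.5, 74.6 and 100.1 CPM in 18 WKY libraries and 28.4, 40.6 and 55.7 in 28 SHR libraries, with no overlap, and the difference was -0.88 (SE 0.0586, edgeR adjusted p = 6.45e-16), with -0.87 in the CVLM and -0.84 in the RVLM. Jph3, a junctophilin that ties the plasma membrane to the endoplasmic reticulum, was higher in SHRs by 0.28, 0.31 and 0.38 in the NTS, CVLM and RVLM (edgeR adjusted p = 3.91e-04, 2.74e-06 and 1.17e-04). Fkbp1a, whose product binds ryanodine receptors and IP3 receptors, had strain differences of -0.45, -0.51 and -0.61 in the NTS, CVLM and RVLM (edgeR adjusted p = 2.01e-04, 2.53e-05 and 2.76e-06). Homer2, a scaffold that binds them as well, differed by -1.13, -1.27 and -1.43 (adjusted p = 0.00120, 3.87e-05 and 2.63e-05), with RVLM medians of 6.39 CPM in WKY rats and 1.89 in SHRs. At single ages Fkbp1a and Homer2 were called at 8 wk in each region and at no other age. In the NTS, Fkbp1a had -0.78 at 8 wk and -0.14 at 24 wk (edgeR adjusted p = 0.00707 and 0.855). Homer2 had -2.24 and -0.15 (adjusted p = 0.0105 and 0.963). All SHR library names end in 1 at 8 wk, while WKY names end in 1 or 2, so strain and that number are partly mixed. With that number as a covariate, the genes called at 8 wk went from 798 to 321 in the NTS. They went from 1025 to 367 in the CVLM and from 1311 to 372 in the RVLM. Whether the Fkbp1a and Homer2 calls hold with that covariate is not given here. Mcub, a subunit that dampens the mitochondrial calcium uniporter, was lower by 0.94 in the NTS, and Plcd4, a phospholipase C, was higher by 0.34 in the NTS and 0.24 in the CVLM. Calb2, the calcium buffer calretinin, was lower by 0.45 in the NTS and by 0.85 in the CVLM. Mcub, Plcd4 and Calb2 missed the threshold in the RVLM (edgeR adjusted p = 0.665, 0.278 and 0.164), as did Mcub in the CVLM (adjusted p = 0.145). Itpr3, the IP3 receptor that is not a member and was picked after its values were seen, was lower in SHRs by 1.23 log2 units in the NTS (SE 0.199, edgeR adjusted p = 8.51e-06) and by 0.50 in the RVLM (adjusted p = 0.00362), and by 0.43 in the CVLM (adjusted p = 0.0562).

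Over the 30 means of region, strain and age, each member was compared with 13115 other genes by Pearson's r of log2 CPM. These means share libraries, depth and regions, so r is a description. Atp2a2 was most like Slc44a1 and Ankrd40 (both r = 0.958), Atp2b1 most like AABR07007068.1 (0.955) and Smad3 (0.928), Atp2b2 like Sgpp2 (0.951) and Gria3 (0.913), Atp2b3 like Crtac1 and Ank1 (both 0.893) and Atp2b4 like Slitrk3 (0.927) and Chrna3 (0.916). Ryr3 was most like Ptch1 (0.928) and Nrp1 (0.920), Ryr2 like Sez6l2 (0.907) and Ubr4 (0.902), Ryr1 like Tiam1 (0.815) and Nrp1 (0.811), Itpr2 like Mad1l1 (0.854) and LOC689574 (0.853), and Itpr1, with the weakest likeness, like Magi2 (0.654) and Cpsf7 (0.625). The highest group mean was 3.19 times the lowest for Ryr3, the widest span, and 1.61 times for Atp2b1, the narrowest.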

How the data were processed

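Per the labels and the study's methods, the authors aligned paired-end reads to the rat genome rn6 with STAR and quantified genes with RSEM, and deposited expected counts, 1 table per region with 32883 genes. The methods describe a ComBat-seq batch adjustment; between 4.88% and 5.02% of the deposited values were not whole, and whether the tables hold that adjustment is not given in the sources used here. Expected counts were rounded to whole numbers. A gene was kept in a region if its highest regularized log value (DESeq2 1.42.0) reached 3.5, which kept 13793 NTS genes, 13408 CVLM genes and 13411 RVLM genes.

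Groups of strain and age were fitted in each region with edgeR 4.0.16 (TMM, robust quasi-likelihood, Benjamini-Hochberg over all genes, R 4.3.3). The 3 regions were fitted together with rat as a block over 14043 genes, since each rat gave all 3 regions: deviations from group means correlated at a median r of 0.189 over 138 pairs of libraries of the same rat and -0.0469 over 540 pairs of different rats. Rats are the replicates. Tests of strain and age within a region weigh a difference against the spread between rats. Tests from the fit with rat as a block weigh it against the spread left within rats. A call is an adjusted p below 0.05, and intervals are 95%. Depth limits the precision of low genes such as Ryr1, with 4 to 55 counts per library. In simulated NTS counts of 13793 genes compared at 10 wk, the test called 12 of 100 genes changed 1.5-fold and 54 of 100 changed 2-fold, with 3 false calls. The simulated spread followed the trend over expression level alone, and the changed genes were picked at random from all levels. No other difference between groups was simulated, so these figures are not the power or error rate of the member tests.

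The members and lists were chosen with earlier results of these data known. Named were all members, the 4 listed genes with the lowest adjusted p for the strain difference averaged over ages in each region, and the 2 genes most like each member. Alternatives were RLE size factors, DESeq2, limma 3.58.1 (voom), other filters, each age alone, the last number of the library name, a replicate block, a strict rule (adjusted p at most 0.01 and 2-fold), libraries without conflicting age labels and leaving out rats. Rats were left out singly in the fits of a region, and by replicate number over all groups in the fit over regions. Read-level processing was not repeated.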

Additional observations from a re-analysis of the deposited data

Results flagged for a closer look

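Over all members and regions together, 210 groups of 4 to 6 rats were tested. Of these, 15 held a library whose gap to the nearest other exceeded Dixon's 95% critical value, where chance flags about 1 in 20 groups. In the NTS these were Ryr1 at 3.19 CPM and Atp2a2 at 357 CPM, both in WKY replicate 2 at 10 wk, Atp2b3 at 61.6 CPM in WKY replicate 3 at 8 wk (others 41.9 to 45.7) and Ryr3 at 5.82 CPM in SHR replicate 6 at 12 wk (others 3.45 to 3.83). In the CVLM they were Ryr3 at 1.74 CPM in WKY replicate 3 at 8 wk, Atp2b1 at 122 CPM in WKY replicate 2 at 10 wk, Ryr3 at 4.75 CPM in SHR replicate 3 at 24 wk, and 3 members in SHR replicate 5 at 24 wk: Atp2b4 at 36.9 CPM, Itpr1 at 16.5 CPM and Itpr2 at 13.7 CPM. In the RVLM they were Atp2b4 at 35.4 CPM in WKY replicate 2 at 10 wk, Itpr2 at 11.4 CPM in SHR replicate 2 at 12 wk and at 12.1 CPM in SHR replicate 2 at 24 wk, Atp2a2 at 347 CPM in SHR replicate 6 at 24 wk, and Ryr3 at 4.79 CPM in SHR replicate 4 at 24 wk, below the others of 7.14 to 8.22. The same WKY rat at 10 wk, replicate 2, gave 4 of the 15 values, over 3 regions.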

How the results depend on the processing

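Over the 50 NTS tests of members and ages, with 1 call in the report, DESeq2 gave 3 calls and fits with one last number of the library name within each age (chosen after seeing the data) gave 4, among them Ryr2, Atp2b2 and Atp2b4 at 10 wk, while the strict rule gave 0 and leaving out 1 rat gave 0 to 4 (4 without SHR replicate 1 at 10 wk). Over all 13793 NTS genes at 10 wk, DESeq2 called 839 and the fits with one last number 994, against 612 in the report. At 8 wk DESeq2 called 1186 genes, against 798. The fits with one last number kept every 10-wk library, so at that age they differ from the report only through libraries of other ages. For the NTS difference averaged over ages, the call of Atp2b3 was lost, leaving 0, with limma voom (adjusted p = 0.0761), with no filter on low counts (0.0624), under the strict rule and, in some fits, when 1 rat was left out (0 to 1 calls). Leaving out 1 rat gave up to 1 call in the CVLM at single ages and up to 1 averaged over ages, from 0. Of the 24 calls between regions, the strict rule left 1, and 22 to 24 were made when a replicate number was left out. For the strain difference between regions, limma gave 1 call, and leaving out a replicate number gave 0 to 2. For NTS against RVLM at 10 wk, limma called 204 of all 14043 genes, against 59 in the report. In these cases the cause was not tested. No called value changed sign, and the other counts of calls stayed within 1.5 times. Levels without TMM were 0.942 to 1.09 times those with it, and 0 of 30 moved by more than 1 SD.

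No label says that a shared replicate number ties a WKY library to an SHR library. Deviations from group means correlated above 0.1 in 32 of 54 same-numbered pairs (median r 0.159), and 27 of 54 SHR libraries correlated best with the WKY library of their own number, a hint from the data and not from the design. Each SHR library had only 3 to 5 WKY libraries of its age and region to match, and the share matched by chance was not computed. With a replicate block within age, Atp2b3 in the NTS kept its differences of 0.62 at 10 wk and 0.21 averaged over ages, at adjusted p = 0.0852 and 0.161, and Atp2a2 at 8 wk was called (adjusted p = 0.0415), so the calls at single ages stayed at 1 and those averaged over ages went to 0. Age differences cannot be given with that block, since a block lies within 1 age. Without the rat as a block, 23 calls between regions were made, against 24 with it.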
